A study of Mus musculus with 8 samples.

Results

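A set of 10 genes of the p53 pathway and the BCL2 family was followed in hematopoietic stem cells (HSCs) from mice with drug-induced hemolytic anemia. They were taken by gene symbol from the deposited expression tables, which list 16729 genes. The set holds Trp53 itself, 2 of its classical targets with no direct part in killing the cell (Mdm2 and Ccng1), 3 pro-death genes (Bax, Bbc3 and Bcl2l11) and 4 pro-survival genes (Bcl2, Bcl2l1, Mcl1 and Bcl2a1b). All 10 were listed for every library and all 10 entered the test across genes, Bcl2a1b only through its level in the spleen libraries.

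The animals were wild-type C57BL/6 mice, which the study's methods give as 8 to 12 weeks old and of both sexes. Phenylhydrazine (PHZ), a compound that destroys red blood cells, was injected intraperitoneally at 60 mg/kg, 2 times on successive days, and HSCs were sorted on day 3 after the second injection. There were 3 libraries from their bone marrow (PHZ BM) and 2 from their spleen (PHZ SP). The control group (control BM, 3 libraries) came from bone marrow of mice without PHZ, labelled PBS in the sample records and untreated in the study's text. HSCs were defined at the sort by the LSK gate (no lineage markers, with Sca-1 and c-Kit) together with CD150 and little or no CD48, and dead cells that took up DAPI were gated out, so all libraries describe cells that were alive at the sort. Spleen HSCs of mice without PHZ were not analysed here, so when PHZ SP is set against control BM the organ and the drug cannot be told apart. The records do not say whether the libraries of a group came from different animals, and p-values therefore measure the spread between these libraries only.

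The p53 protein is a transcription factor that accumulates after DNA damage and other stress. It is controlled mainly through its stability, because the ubiquitin ligase MDM2 marks it for destruction and is itself a p53 target, so the Trp53 transcript does not report the activity of the protein. BCL2 family proteins decide whether mitochondria release cytochrome c and so start the caspases. BAX and BAK form the pore, BCL2, BCL-XL (Bcl2l1), MCL1 and A1 (Bcl2a1) hold them in check, and BH3-only proteins such as PUMA (Bbc3) and BIM (Bcl2l11) undo that check. MCL1 is known to be required for the survival of HSCs.

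Promoter sequences with a p53 site are shown first, because they describe the members independently of their levels. The window runs from 250 bases before to 50 bases after each RefSeq start site (GRCm38.p6, which has the coordinates of mm10), and was searched for the p53 half-site, a motif of 10 bases that is its own reverse complement, so that both strands are covered. The motif has purines, then C, then A or T at each of the next positions, then G, then pyrimidines. Of the 10 members, 4 (40%) had a half-site in the window, against 2582 of 27025 genes (9.55%) in the promoter table. Among 24 listed p53 targets, which include some members, 10 (41.7%) had one. A gene with several start sites has more windows, and by promoter the share was 26.7% for the members and 8.36% for all genes. A pair of half-sites at most 13 bases apart, which contains the half-site motif, was present in the window of 0 members and of 20 genes (0.074%). Below, the half-site is in capitals with its flanks in lower case, all upstream of the transcript start and outside the exons of that transcript, 5′ to 3′ on the strand of the gene.

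Trp53 (chr11:69580269-69580308, plus strand): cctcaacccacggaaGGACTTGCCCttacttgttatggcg
Mdm2 (chr10:117710920-117710959, minus strand): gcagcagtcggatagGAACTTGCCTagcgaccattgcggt
Ccng1 (chr11:40755447-40755486, minus strand): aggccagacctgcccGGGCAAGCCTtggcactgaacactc
Bax (chr7:45467075-45467114, minus strand): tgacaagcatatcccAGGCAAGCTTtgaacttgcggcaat
Cdkn1a (chr17:29090891-29090952, plus strand): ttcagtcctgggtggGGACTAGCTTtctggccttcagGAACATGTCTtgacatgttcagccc

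The half-site began 75 bases before the start site of Trp53, 186 before that of Mdm2, 185 before that of Ccng1 and 201 before that of Bax. Cdkn1a, which encodes the cell cycle inhibitor p21 and is no member, is shown for comparison because it was the single gene among the 24 listed p53 targets matched in the promoter table whose window held a pair. No match was present in the windows of Bbc3, Bcl2l11, Bcl2, Bcl2l1, Mcl1 and Bcl2a1b, which says only that these letters are not there. A match is a description of sequence, and binding was not measured.

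A second set of sequences bears on how far Bcl2a1b can be read. The mouse has several near-identical A1 genes on chromosome 9, and the first 60 coding bases of 3 of them (GENCODE M21, mm10, first coding exon) are given with the 6 positions that differ in capitals.

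Bcl2a1b (chr9:89199360-89199419, plus strand): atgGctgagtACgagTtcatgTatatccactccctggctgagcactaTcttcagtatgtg
Bcl2a1a (chr9:88957051-88957110, plus strand): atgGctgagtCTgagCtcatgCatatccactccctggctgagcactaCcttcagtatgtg
Bcl2a1d (chr9:88731660-88731719, minus strand): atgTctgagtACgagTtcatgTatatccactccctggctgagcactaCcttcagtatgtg

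Over 516 coding bases, Bcl2a1a was 97.9% identical to Bcl2a1b (11 mismatches) and Bcl2a1d was 98.8% identical (6 mismatches). Reads from these copies cannot be assigned with certainty, and values under the name Bcl2a1b are uncertain for that reason. The FPKM of Bcl2a1b implied a gene length of 1081 bases, where the merged exons of the annotation hold 817, and 401 of its exon bases are shared with the gene model Gm29094 on the same strand.

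The deposited values are FPKM, fragments scaled to gene length and sequencing depth, and they resolved into whole reads in every case, with 8216626 to 13201359 reads per library. Between 43.3% and 48.6% of these reads belonged to the ribosomal RNA gene Rn45s. Libraries of a group correlated at r = 0.903 to 0.976 across genes. The 12 fixed HSC and progenitor markers were all expressed, with summed levels of 529 to 649 FPKM in control BM, 601 to 712 in PHZ BM and 643 to 657 in PHZ SP. Summed markers of other cells stood apart in the spleen libraries, at 1032 to 1179 FPKM for the erythroid list against 132 to 351 in all marrow libraries, and at 1418 to 1808 FPKM for the neutrophil list against 431 to 1060. The megakaryocyte list was lower in PHZ BM, at 86.8 to 111 FPKM against 125 to 145 in control BM and 89.1 to 145 in PHZ SP, and 2 of its 6 tested genes, Pf4 and Ppbp, fell in PHZ BM against control BM (adjusted p = 0.0425 and 0.0265 by limma, beside 1.26% of all genes called lower). The others did not pass, with log2 differences of 0.69 for Itga2b, -0.20 for Gp9, -0.29 for Gp5 and -0.66 for Vwf. These names were given after their values were seen, and the part of such cells in the differences between PHZ BM and control BM was not tested. In bulk RNA, fewer cells of a type and less RNA per cell cannot be told apart.

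**Figure D1:**
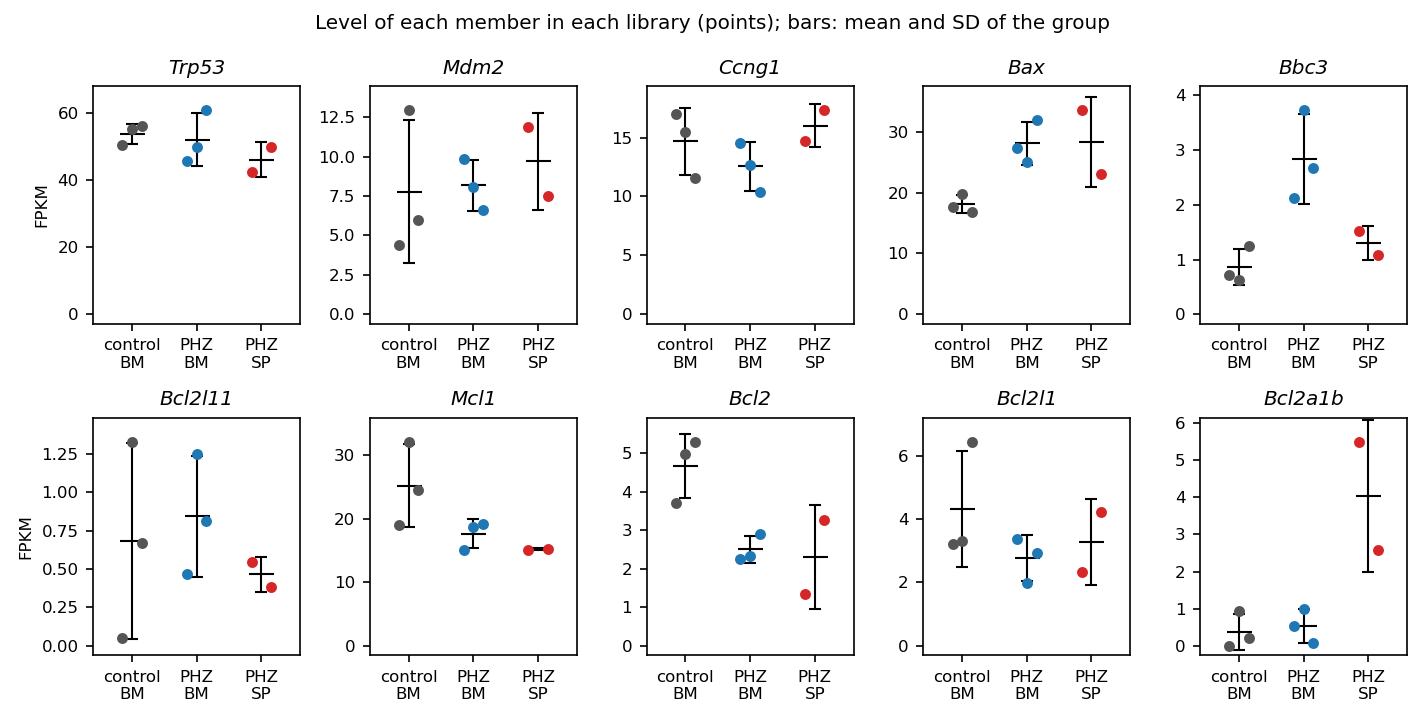
FPKM of the 10 members in each library (points, linear axis in each panel), with the mean and SD of each group as bars, for control BM (3 libraries), PHZ BM (3) and PHZ SP (2). Bax and Bbc3 lie higher in every PHZ BM library than in every control library, Bcl2 lies lower, and Bcl2a1b is above 2 FPKM in the spleen libraries only.

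Trp53 (chr11:69580348-69591873) was the most abundant member in every library. It was present at 50.5, 55.2 and 56.1 FPKM in control BM, at 45.7, 49.9 and 60.9 FPKM in PHZ BM, and at 42.4 and 49.9 FPKM in PHZ SP. The marrow groups overlapped, whereas both spleen libraries lay under the lowest control, one of them by less than 1 FPKM. On the log2(FPKM + 1) scale, the scale of all fold changes given here, Trp53 differed by -0.06 ± 0.15 (SE) between PHZ BM and control BM (95% interval -0.39 to 0.28, adjusted p = 0.900 by limma with Benjamini-Hochberg adjustment over the 11351 genes tested). Between PHZ SP and control BM the difference was -0.22 ± 0.17 (interval -0.60 to 0.15, adjusted p = 0.564), or -0.11 and -0.34 without the first or the second spleen library. Neither difference passed the threshold of 0.05.

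Mdm2 (chr10:117688875-117710758), the ligase that limits p53, measured 4.38, 12.9 and 5.99 FPKM in control BM. It measured 9.83, 8.09 and 6.60 FPKM in PHZ BM, and 11.9 and 7.51 FPKM in PHZ SP. One control library exceeded all others, and the groups overlapped in each comparison. The log2 difference was 0.17 ± 0.33 for PHZ BM and 0.38 ± 0.37 for PHZ SP against control BM, with adjusted p of 0.852 and 0.665. The difference for PHZ SP was 0.079 without the first spleen library and 0.77 without the second control library, and that for PHZ BM ran from -0.12 to 0.57 with 1 library left out. The intervals, -0.56 to 0.90 and -0.44 to 1.20, left room for changes in either direction.

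Ccng1 (chr11:40748552-40755309) encodes cyclin G1, a p53 target that recruits a phosphatase to MDM2. It ranged from 11.5 to 17.0 FPKM in control BM, from 10.4 to 14.6 in PHZ BM, and stood at 14.7 and 17.3 in PHZ SP. The spleen libraries were higher than every PHZ BM library, though by little, with a log2 difference of 0.34 ± 0.23 that missed the threshold (adjusted p = 0.573) and was 0.22 without PHZ BM replicate 3. Of the 3 genes, none passed in any comparison, and the widest interval was that of Mdm2.

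Of the pro-death genes, Bax and Bbc3 were higher in PHZ BM than in control BM without overlap, and Bcl2l11 was not. Bax (chr7:45461695-45466903), the pore-forming effector, measured 17.6, 19.7 and 16.8 FPKM in control BM. Its level was 27.3, 25.1 and 32.0 FPKM in PHZ BM, and 33.5 and 23.0 FPKM in PHZ SP. All 5 PHZ libraries were above all 3 control libraries. The log2 difference from control BM was 0.61 ± 0.19 for PHZ BM (adjusted p = 0.118) and 0.60 ± 0.21 for PHZ SP (adjusted p = 0.193). The latter was 0.34 without the first spleen library. The spleen and marrow of PHZ mice differed in Bax by -0.01, with an interval of -0.47 to 0.45. Of the Bax exons, 192 bases are shared with the gene model Gm45808 on the same strand.

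Bbc3 (chr7:16308398-16318334), which encodes PUMA, was low throughout. It stood at 0.725, 0.627 and 1.25 FPKM in control BM, from 12 to 34 reads. It reached 2.12, 3.72 and 2.67 FPKM in PHZ BM, from 47 to 74 reads, and 1.52 and 1.09 FPKM in PHZ SP. Every PHZ BM library exceeded every other library. Mean levels were 2.83 ± 0.815 FPKM (SD, n = 3) in PHZ BM and 0.867 ± 0.335 FPKM (SD, n = 3) in control BM. The log2 difference was 1.03 ± 0.27, with an interval of 0.43 to 1.63 and an adjusted p of 0.0769 by limma. A pseudocount of 1 FPKM understates the change of so low a gene, and the difference was 1.62 at a pseudocount of 0.1 FPKM and 1.65 with voom, with 0.87 the lowest of the alternatives. It was the smallest adjusted p of any member in that comparison, and it passed in 1 of 15 alternatives, which kept only genes with 10 or more reads in all libraries (adjusted p = 0.0410), with adjusted p up to 0.332 in the others. Against PHZ BM, PHZ SP were lower by -0.72 ± 0.31 (adjusted p = 0.334), and the groups did not overlap.

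Bcl2l11 (chr2:128126038-128162547), which encodes BIM, was the least abundant pro-death member by the mean of each group, though not in every library. It measured 0.0511, 1.33 and 0.671 FPKM in control BM, 0.465, 1.25 and 0.812 FPKM in PHZ BM, and 0.548 and 0.384 FPKM in PHZ SP. The control libraries alone spanned 4 to 96 reads, which was the whole range of the 8 libraries. No difference was detectable at this spread, with log2 differences of 0.18 ± 0.35 and -0.13 ± 0.39 from control BM.

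Among the pro-survival genes, Mcl1 (chr3:95656944-95663179) was the most abundant. It was present at 19.0, 32.1 and 24.5 FPKM in control BM, at 15.1, 18.8 and 19.1 FPKM in PHZ BM, and at 15.1 and 15.3 FPKM in PHZ SP. The spleen libraries were below every control, and the PHZ BM libraries overlapped the control group at a single value. The log2 difference from control BM was -0.66 ± 0.23 in PHZ SP (interval -1.17 to -0.16, adjusted p = 0.193) and -0.47 ± 0.21 in PHZ BM (interval -0.92 to -0.01, adjusted p = 0.285). The latter was -0.28 without the second control library.

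Bcl2 (chr1:106538176-106714290), the founding member of the family, measured 3.72, 4.98 and 5.29 FPKM in control BM. It was lower in all PHZ libraries, at 2.27, 2.34 and 2.90 FPKM in PHZ BM and at 1.35 and 3.26 FPKM in PHZ SP. Neither PHZ group overlapped the control group. The log2 difference was -0.69 ± 0.27 in PHZ BM (interval -1.29 to -0.09, adjusted p = 0.229) and -0.83 ± 0.31 in PHZ SP (interval -1.50 to -0.16, adjusted p = 0.219). The latter was -0.40 without the first spleen library and -1.26 without the second. Exons of Bcl2 share 558 bases with D630008O14Rik on the opposite strand, and whether reads were counted by strand is not given in the sources used here.

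Bcl2l1 (chr2:152758732-152833803) encodes BCL-XL, which protects late erythroid cells. Its levels were 3.22, 3.31 and 6.43 FPKM in control BM, 3.38, 1.98 and 2.94 FPKM in PHZ BM, and 2.33 and 4.23 FPKM in PHZ SP. The groups overlapped in every comparison, and the log2 difference of PHZ BM from control BM was -0.47 ± 0.30 (adjusted p = 0.480), or -0.20 without control BM replicate 3.

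Bcl2a1b (chr9:89199273-89207838), an A1 gene known for expression in myeloid and activated lymphoid cells, was low in all marrow libraries. It had 0, 9 and 3 reads in control BM (0, 0.925 and 0.217 FPKM), and a count of 0 allows up to 3 reads. It had 6, 10 and 1 reads in PHZ BM (0.532, 0.989 and 0.0719 FPKM), and 66 and 29 reads in PHZ SP (5.48 and 2.59 FPKM). Both spleen libraries were above every marrow library. The log2 difference was 1.86 ± 0.42 from control BM (adjusted p = 0.0675) and 1.70 ± 0.42 from PHZ BM (adjusted p = 0.0850), and neither passed. Over 14 alternatives the first of these ranged from 1.43 to 4.10, with 3.60 at a pseudocount of 0.1 FPKM, 4.10 with voom and 1.43 without the first spleen library, and none passed (adjusted p from 0.0666 to 0.339). The gene passed the filter on low values through its spleen libraries alone, so a difference in that direction was required of it, and these values are a description.

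Markers of other cells also differed in the spleen libraries. All 10 neutrophil markers had a higher mean in PHZ SP than in control BM, 1 of them past the threshold (beside 0.625% of all genes called higher), and their summed level was 1418 to 1808 FPKM in PHZ SP, 431 to 740 in control BM and 510 to 1060 in PHZ BM. Against PHZ BM, 8 of the 10 neutrophil markers were higher and 2 lower in mean log2(FPKM + 1). By mean FPKM, more of them were lower in PHZ SP. Of these markers, Ctsg was at 0 in every control library, and Ly6g was below 1 FPKM in each. Both passed the filter through PHZ libraries alone, so a higher mean than in control BM was favoured by the filter. The macrophage and monocyte list summed to 350.5 to 352 FPKM in PHZ SP, 252 to 287 in control BM and 203 to 261 in PHZ BM. The lymphoid lists differed less in sum, at 54.4 to 56.8 FPKM in PHZ SP, 23.7 to 66.3 in control BM and 36.8 to 54.0 in PHZ BM for T and NK cells, and at 39.6 to 54.8, 27.7 to 50.8 and 28.8 to 31.4 FPKM for B cells. Of the T and NK list 3 genes were tested and 1 passed, the NK cell receptor gene Klrb1c. Over all genes, 0.625% were called higher against control BM, and 0.978% were called in either direction against PHZ BM. Klrb1c rose in PHZ SP, at 14.8 and 18.5 FPKM against 0.556 to 3.08 FPKM in the marrow libraries (log2 difference 3.19 ± 0.28 from control BM with adjusted p = 0.000868 by limma, and 2.30 ± 0.28 from PHZ BM with adjusted p = 0.00479). The cytotoxic granule gene Nkg7 of the same list was at 27.0 and 27.95 FPKM in PHZ SP, 19.2 to 59.9 in control BM and 27.8 to 45.8 in PHZ BM, with its log2 difference below 0 in both spleen comparisons. All 3 tested B cell markers were higher in mean than in either marrow group, with none past the threshold. Klrb1c was named after its values were seen. The part of such cells in the Bcl2a1b values was not tested. Of the other A1 copies, Bcl2a1d had 15 reads in the first spleen library and none in the second. The genes whose levels followed Bcl2a1b most closely over the 8 libraries, by Pearson r of log2(FPKM + 1), were Hoxb9 (r = 0.978), Zbtb41 (r = 0.974) and Camk2d (r = 0.971), and the 2 spleen libraries were the highest for each of them too, which follows from matching them to Bcl2a1b.

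**Figure D2:**
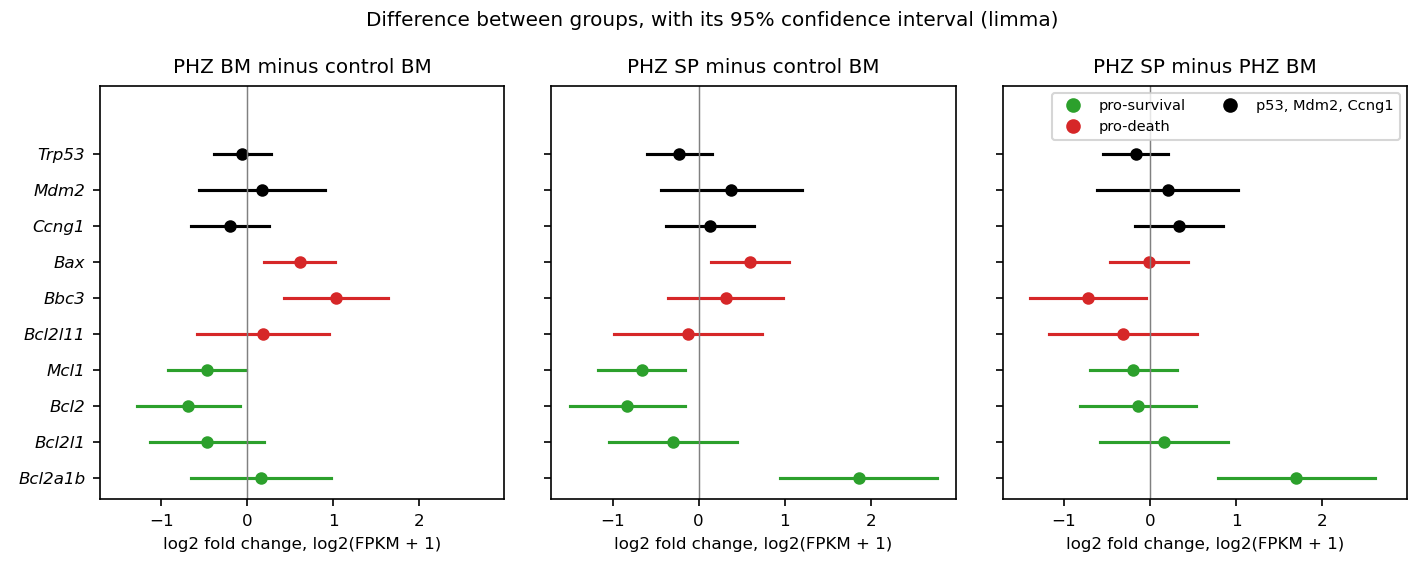
Differences between groups for the 10 members (points, log2 fold change on the log2(FPKM + 1) scale) with 95% confidence intervals from limma (lines), colored by role. The intervals of Bax and Bbc3 lie above 0 and those of Bcl2 and Mcl1 below 0 for PHZ BM minus control BM, and Bcl2a1b, whose direction the filter fixed, lies far to the right for both comparisons with PHZ SP, but 0 members passed after adjustment over all genes.

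Counted together, 0 of 10 members passed limma's adjusted threshold in each comparison, where 2.74% of all genes tested passed for PHZ BM against control BM, 0.758% for PHZ SP against control BM and 0.978% for PHZ SP against PHZ BM. The count was also 0 with limma voom on the recovered reads. At an unadjusted limma p under 0.05, there were 4 members for PHZ BM against control BM (Bax and Bbc3 higher, Bcl2 and Mcl1 lower), beside 16.6% of all genes, 9.05% higher and 7.57% lower. Bcl2a1b is left out of the further counts, since the filter fixed its direction. Of the other 9 members there were 3 for PHZ SP against control BM (Bax higher, Bcl2 and Mcl1 lower), beside 15.8% of all genes, 8.65% higher and 7.14% lower. There was 1 for PHZ SP against PHZ BM (Bbc3 lower), beside 13.5% of all genes, 7.01% higher and 6.47% lower. Groups that did not overlap were seen for 3 members in PHZ BM against control BM, where 23.9% of all genes had such groups, for 4 of these 9 in PHZ SP against control BM (28.9% of all genes) and for 2 in PHZ SP against PHZ BM (34.9%). The unadjusted counts were not stable. For PHZ BM against control BM the count was 2, with Bcl2 and Mcl1 lost, without PHZ BM replicate 1 or 2 or control BM replicate 2 or 3. For PHZ SP against control BM it was 0 without PHZ SP replicate 1, and 2 without PHZ SP replicate 2 or control BM replicate 3. For PHZ SP against PHZ BM it was 0 without either spleen library or PHZ BM replicate 2 or 3, and also 0 with a pseudocount of 0.1 FPKM, with voom and with a replicate block. The comparisons with control BM share the same 3 control libraries and are not independent of each other.

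The question put to these genes was how the pro-survival members stood against the pro-death members. FPKM is per gene length, so levels can be added. The summed pro-survival level was 26.0, 41.3 and 36.5 FPKM in control BM, 21.3, 24.1 and 25.1 FPKM in PHZ BM, and 24.3 and 25.4 FPKM in PHZ SP. The summed pro-death level was 18.4, 21.7 and 18.8 FPKM in control BM, 29.9, 30.0 and 35.4 FPKM in PHZ BM, and 35.5 and 24.5 FPKM in PHZ SP. Every PHZ library thus lay below every control in the first sum and above every control in the second.

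The ratio of the sums, survival over death, was 1.41, 1.91 and 1.94 in the control libraries, above 1 in each. It was 0.711, 0.802 and 0.707 in PHZ BM, below 1 in all 3 libraries. In PHZ SP it was 0.683 in one library and 1.04 in the other. The mean log2 ratio was 0.80 ± 0.26 (SD, n = 3) in control BM, -0.44 ± 0.10 (SD, n = 3) in PHZ BM and -0.25 ± 0.43 (SD, n = 2) in PHZ SP. Which side was in excess depended on the genes summed, since over all listed BCL2 family genes the log2 ratio was below 0 in every library, at -0.91 to -0.16 in control BM, -1.23 to -1.03 in PHZ BM and -1.17 to -0.76 in PHZ SP. No test was made of these sums, because the members were chosen with earlier results of these data known.

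Both sums were led by a single gene. Mcl1 made up 60.3% to 77.9% of the pro-survival sum and Bax 83.5% to 95.8% of the pro-death sum, so the ratio follows mainly Mcl1 over Bax. Bax over Bcl2 was 3.18 to 4.74 in control BM, 10.7 to 12.0 in PHZ BM, and 24.8 and 7.05 in PHZ SP. The difference between PHZ BM and control BM in the mean log2 ratio was -1.23. It was -0.97 when each member counted equally, as a mean of log2(FPKM + 1), and -0.74 over all listed BCL2 family genes, and in each case the groups did not overlap. For PHZ SP against control BM the difference of -1.04 became -0.55 over all listed family genes, where the groups overlapped. With equal weights the spleen values rested on Bcl2a1b, whose direction the filter fixed. The equal-weight difference of PHZ SP from control BM was -0.24 with overlap, and -0.86 without overlap once Bcl2a1b was left out. That of PHZ SP from PHZ BM was 0.73 without overlap, and 0.29 with overlap once Bcl2a1b was left out. The sums without Bcl2a1b gave -1.29 for PHZ SP and -1.25 for PHZ BM against control BM, and -0.040 in place of 0.19 for PHZ SP against PHZ BM, where the groups overlapped either way. Leaving out Bcl2a1b was chosen after seeing the data.

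**Figure D3:**
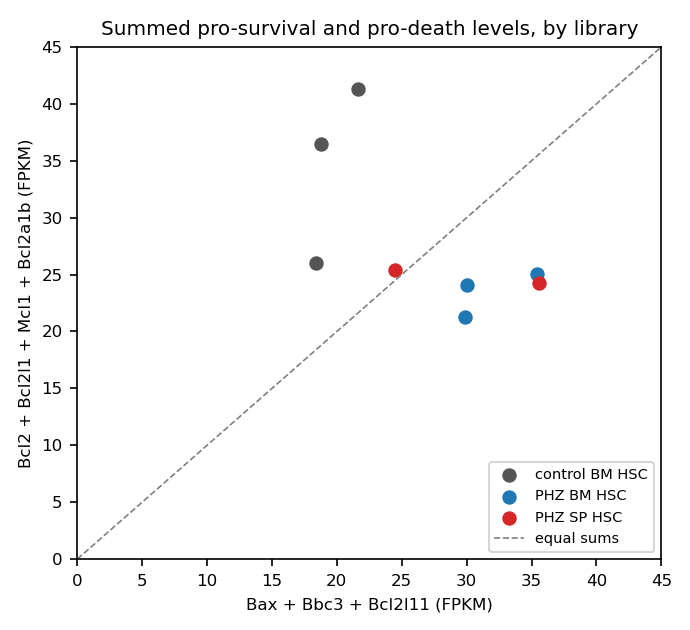
Summed FPKM of the pro-survival members (vertical axis) against the pro-death members (horizontal axis), 1 point for each of the 8 libraries, with a dashed line where the sums are equal. The 3 control libraries lie above the line, the 3 PHZ BM libraries below it, and the 2 PHZ SP libraries on either side of it at ratios of 0.683 and 1.04. The place of the line holds for these 7 members only, and over all listed family genes every library lies on the pro-death side.

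The wider pathway was described with lists of 32 p53 targets, 16 p53 regulators, 9 pro-survival, 3 effector and 8 BH3-only genes of the BCL2 family, and 21 genes of the caspase step. These lists contain the members. Among the 28 p53 targets tested, 1 rose in PHZ BM against control BM by limma (beside 1.48% of all genes called higher), and 0 passed in the comparisons with PHZ SP. The median log2 difference of these 28 genes was 0.30 for PHZ BM and 0.29 for PHZ SP against control BM, where the median of all genes was 0.01 and -0.001. At an unadjusted p under 0.05, 7 of the 28 were higher and 1 lower in PHZ BM, beside the same 9.05% and 7.57% of all genes. The counts were 6 higher and 0 lower for PHZ SP against control BM, beside 8.65% and 7.14% of all genes. They were 1 higher and 4 lower for PHZ SP against PHZ BM, beside 7.01% and 6.47% of all genes. The median in that last comparison was 0.07 beside -0.02 for all genes. Besides Bax, Bbc3 and Btg2, the higher ones in PHZ BM against control BM were Dcxr, Plk2, Rrm2b and Xpc, and the lower one was Tap1, names given after their values were seen. Rrm2b was below 1 FPKM in every control library and passed the filter through PHZ libraries alone. The filter therefore favoured its direction, and its place in the count is a description.

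Btg2, an antiproliferative p53 target that is also switched on as an immediate early gene, was the target that rose. It measured 1.35, 1.42 and 3.07 FPKM in control BM, 13.2, 12.7 and 9.36 FPKM in PHZ BM, and 7.20 and 5.59 FPKM in PHZ SP. The log2 difference between PHZ BM and control BM was 2.15 ± 0.27 (adjusted p = 0.00204 by limma), and it passed in all 15 alternatives. In PHZ SP the difference from control was 1.37 ± 0.30 (adjusted p = 0.0632). Immediate early genes as a list moved with it. Of 15 tested, 12 were called higher in PHZ BM against control BM, beside 1.48% of all genes. In PHZ SP, 5 were called higher against control BM (beside 0.625% of all genes) and 8 lower against PHZ BM (beside 0.978% called in either direction). Their summed level was 155 to 209 FPKM in control BM, 1066 to 1212 in PHZ BM and 377 to 381 in PHZ SP. Their part in the Btg2 and Bbc3 values was not tested.

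Cdkn1a, the classical readout of p53, gave no such difference. It measured 2.11, 0.694 and 0.402 FPKM in control BM, 0.774, 0.825 and 10.8 FPKM in PHZ BM, and 4.42 and 4.86 FPKM in PHZ SP. A single PHZ BM library was high, and without it the log2 difference of PHZ BM from control changed from 0.79 to -0.11. Both spleen libraries exceeded the controls, with a log2 difference of 1.53 ± 0.69 (adjusted p = 0.314). Mdm4, a partner of MDM2 that also restrains p53, was at 5.20 to 10.8 FPKM in control BM, 5.97 to 6.69 in PHZ BM and 3.68 and 5.78 in PHZ SP, and passed in no comparison.

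A further 3 genes of the lists fell in PHZ BM against control BM, where 1.26% of all genes tested were called lower. Birc5 encodes survivin, an inhibitor of apoptosis that is made mainly in dividing cells and is needed for mitosis. It measured 25.0, 10.1 and 27.5 FPKM in control BM, 1.66, 2.64 and 3.44 FPKM in PHZ BM, and 9.26 and 20.2 FPKM in PHZ SP. It was lower in PHZ BM by -2.53 ± 0.38 (adjusted p = 0.00590), and this passed in all 15 alternatives. The difference between PHZ SP and PHZ BM, 2.07 ± 0.43, was just outside the threshold (adjusted p = 0.0502) and passed in 5 of 15 alternatives (adjusted p from 0.0227 to 0.224).

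Chek1, a checkpoint kinase of replicating cells that phosphorylates p53, measured 4.38, 3.50 and 4.11 FPKM in control BM and 0.413, 0.922 and 1.99 FPKM in PHZ BM. Its log2 difference was -1.31 ± 0.29 (adjusted p = 0.0378). In PHZ SP it stood at 4.03 and 4.66 FPKM, within or above the control range. Bok, a BAX-like effector, measured 2.90, 6.03 and 2.97 FPKM in control BM, 0.520, 0.348 and 0.928 FPKM in PHZ BM, and 2.83 and 0.681 FPKM in PHZ SP. Its log2 difference between PHZ BM and control BM was -1.59 ± 0.36 (adjusted p = 0.0414). Every PHZ BM library was below 1 FPKM, and Bok passed the filter on low values through its control libraries. A difference in that direction was therefore favoured by the filter, and these values are a description. These calls for Chek1 and Bok were less firm than that for Birc5, since Chek1 passed in 4 of 15 alternatives (adjusted p from 0.0168 to 0.176) and Bok in 4 of 14 (adjusted p from 0.0282 to 0.174). Leaving out any single control library, or the first or second PHZ BM library, ended both calls, as did leaving out the third PHZ BM library for Bok or either spleen library for Chek1.

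**Figure D4:**
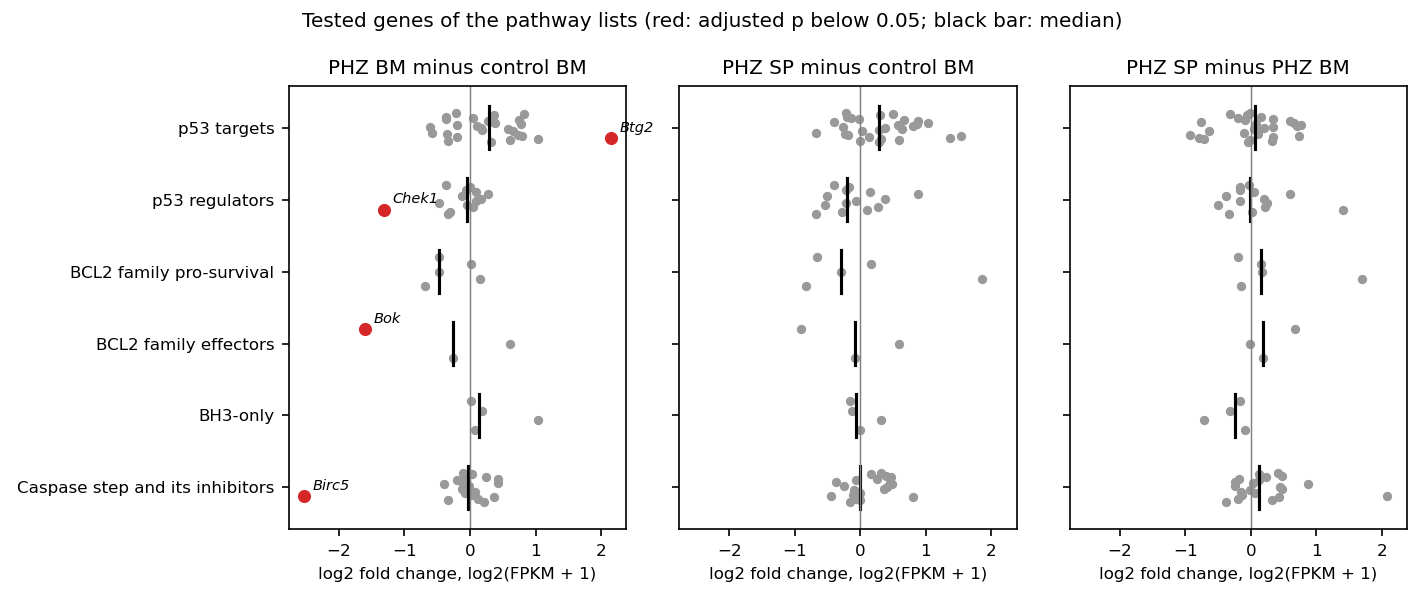
Log2 fold change of every tested gene of the pathway lists (points) in the 3 comparisons, with the median of each list as a black bar and genes with an adjusted p below 0.05 in red. Only PHZ BM minus control BM has red points, which are Btg2 on the right and Birc5, Bok and Chek1 on the left. The filter on low values favoured the direction of Bok.

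The near relatives Bak1, Bid, Bcl2l2 and Pmaip1 showed no call. Bak1, the effector that shares its role with Bax, was at 1.89 to 4.48 FPKM in control BM, 2.19 to 3.58 in PHZ BM and 2.76 and 3.61 in PHZ SP, so all groups overlapped. The higher level of Bax in PHZ BM was accompanied by log2 differences of -0.26 ± 0.30 for Bak1 (-0.56 to -0.10 with 1 library left out) and -1.59 ± 0.36 for Bok among the effectors. Bid, a BH3-only protein that links death receptors to mitochondria, varied little, from 7.90 to 10.8 FPKM over all 8 libraries. Bcl2l2, which encodes the pro-survival protein BCL-W, was low at 0.382 to 2.07 FPKM. Pmaip1, the BH3-only p53 target NOXA, was listed for the control libraries alone, at 0, 0 and 0.229 FPKM, and could not be compared. Of the BH3-only list, 0 of 4 tested genes passed in each comparison, as did 0 of 5 tested pro-survival genes. Of the 3 effectors, Bok alone passed, in PHZ BM against control BM, in the direction that the filter favoured.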

How the data were processed

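The authors sorted HSCs, amplified cDNA with SMART-Seq2, built Nextera XT libraries, aligned reads to mm10 with STAR and deposited FPKM per gene in 3 tables. The gene counter, annotation and use of strand are not given in the sources used here. The deposited DESeq2 tables, which hold the authors' fold changes and p-values, were not used. The marrow columns are headed WBM and were matched to samples through their table and title.

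FPKM steps were resolved into whole reads (110442 of 110442 values above 0 were whole within 0.001 reads). The tables had been scaled separately, so FPKM was rescaled with common median-of-ratios factors over the 8 libraries, which moved libraries by at most 1.10%. Genes in all 3 tables (15142) at 1 FPKM or more in at least 2 libraries (11351) were tested with limma 3.58.1 (R 4.3.3, trend and robust) on log2(FPKM + 1), all 8 libraries in one fit, two-sided, Benjamini-Hochberg threshold 0.05. The fit was run on simulated data with large changes in better expressed genes of PHZ SP, which does not cover low members or smaller changes. Alternatives were a pseudocount of 0.1 FPKM, other filters, the deposited scaling, fits of 2 groups, limma voom on recovered reads, a replicate block, leaving out each library and, chosen after seeing the data, sums without Bcl2a1b. Named genes were the 10 members, every listed pathway gene past the threshold, 6 near relatives (Cdkn1a, Pmaip1, Bak1, Bcl2l2, Bid and Mdm4) and the 3 genes most like the member with the smallest p. Other genes, such as Dcxr, Plk2, Rrm2b, Xpc, Tap1 and the markers Klrb1c, Nkg7, Ctsg, Ly6g, Pf4, Ppbp, Itga2b, Gp9, Gp5 and Vwf, were named after their values were seen. Members and lists were chosen with earlier results of these data known. Without molecular identifiers, limits given in reads reflect counting error alone.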

Additional observations from a re-analysis of the deposited data

How the results depend on the processing

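No member passed the adjusted threshold in any alternative, except Bbc3 when only genes with 10 or more reads in all libraries were kept, which made the count 1 for PHZ BM against control BM. The number of genes called over the whole table was less stable. For PHZ SP against control BM it was 86, and 39 with a pseudocount of 0.1 FPKM, 46 with no filter, 43 with only the 2 groups compared, and 14 to 83 when 1 library was left out (14 and 32 without PHZ SP HSC replicates 1 and 2, 44 and 33 without PHZ BM HSC replicates 1 and 2, and 43 without control BM HSC replicate 2). For PHZ SP against PHZ BM it was 111, and 62 with no filter, 65 with limma voom, and 5 to 148 with 1 library left out (5 and 7 without PHZ SP HSC replicates 1 and 2, and 20 and 30 without PHZ BM HSC replicates 1 and 2). For PHZ BM against control BM it was 311, and 205 with no filter and 114 to 306 with 1 library left out (120 and 114 without PHZ BM HSC replicates 1 and 2, and 181 without control BM HSC replicate 1). Leaving out a spleen library leaves 1, assumed to vary like the other groups. The difference in mean log2 survival over death ratio was -1.38 to -1.15 (PHZ BM minus control BM), -1.34 to -0.74 (PHZ SP minus control BM) and -0.11 to 0.49 (PHZ SP minus PHZ BM) with 1 library left out. With equal weights these differences were -0.97, -0.24 and 0.73, the last 2 resting on Bcl2a1b (-1.15, -0.86 and 0.29 without it, an alternative chosen after seeing the data), and over all listed family genes -0.74 and -0.55 for the first 2.

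Whether same-numbered libraries came from the same animals is not given in the sources used here. Same-numbered libraries correlated at -0.00808 to 0.0604 in their deviations from the group means, and other pairs at -0.0643 to 0.0688. This check cannot exclude pairing, since the deviations of the 2 spleen libraries mirror each other and each group is small. A replicate block called no member, ended the call of Bok for PHZ BM against control BM (adjusted p = 0.0718 by limma, log2 difference -1.59), made a call of Birc5 for PHZ SP against PHZ BM (adjusted p = 0.0476 by limma, log2 difference 2.28), and turned the sign of small differences, Ccng1 (-0.00413) and Bak1 (0.076) for PHZ SP against control BM and Bax (0.012) for PHZ SP against PHZ BM.

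Other signs that turned belonged to log2 differences that passed no threshold. Bcl2l11 turned for PHZ SP against control BM with a pseudocount of 0.1 FPKM (0.027) and voom (0.29), and Bcl2l2 for PHZ BM against control BM with voom (-0.00642). With 1 library left out, the ranges that crossed 0 for PHZ SP against control BM were -0.020 to 0.24 for Ccng1, -0.43 to 0.14 for Bcl2l11, -0.63 to 0.025 for Bcl2l1, -0.37 to 0.086 for Bak1, -0.41 to 0.74 for Bcl2l2 and -0.98 to 0.072 for Birc5. For PHZ SP against PHZ BM they were -0.092 to 0.51 for Mdm2, -0.27 to 0.25 for Bax, -0.57 to 0.29 for Bcl2, -0.16 to 0.49 for Bcl2l1 and -0.42 to 0.73 for Bcl2l2. For PHZ BM against control BM they were -0.17 to 0.033 for Trp53, -0.12 to 0.57 for Mdm2, -0.12 to 0.45 for Bcl2l11, -0.052 to 0.43 for Bcl2a1b, -0.11 to 1.25 for Cdkn1a, -0.17 to 0.24 for Bcl2l2, -0.061 to 0.099 for Bid and -0.31 to 0.15 for Mdm4. The cause of these shifts was not tested. Depth limits Bbc3, Bcl2l11 and Bcl2a1b most, at 12 to 74, 4 to 96 and 0 to 66 reads.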
